A study of Mus musculus with 20 samples.

Results

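The 10 genes described here belong to the NRF2 response to oxidative stress: Nfe2l2, Keap1, Nqo1, Gclc, Gclm, Hmox1, Txnrd1, Srxn1, Slc7a11 and Gpx2. They were chosen by name, and each name had 1 row among the 38924 genes of the deposited FPKM table. RNA was sequenced from the livers of 20 male mice in 4 groups of 5. WT mice (C57BL/6J) and TSP-1 null mice (a purchased germline Thbs1 knockout line, labelled with the same C57/BL6 strain) were all bought at 5 weeks of age. They were acclimated for 1 week and then received control chow or CDAHFD for 12 weeks. CDAHFD is a high fat chow that lacks choline, is limited in methionine and takes its protein as defined L-amino acids. Group names give the diet (ND for control, HF for CDAHFD) and then the genotype (WT, or KO for TSP-1 null), so that NDWT, NDKO, HFWT and HFKO hold 5 livers each. The knockout affects every cell of the body from the start of life, so no group separates loss of TSP-1 in the liver from loss elsewhere.

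NRF2, the protein of Nfe2l2, is a transcription factor that is made constantly and kept scarce. KEAP1 holds it to the CUL3 ubiquitin ligase, which marks it for degradation. Electrophiles and oxidants modify cysteines of KEAP1, and NRF2 then escapes, enters the nucleus, pairs with a small MAF protein and binds antioxidant response elements. Its targets make and use glutathione, recycle thioredoxin, reduce quinones and break down haem. In the liver the pathway is best known from the metabolism of drugs and toxins. Because NRF2 is controlled mainly through the stability of the protein, the RNA of Nfe2l2 does not measure its activity.

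Libraries held 15641544 to 23276322 fragments assigned to genes, and 3 fragments correspond to 0.129 to 0.192 FPKM on a gene of 1 kb. The labels gave no sequencing batch. Thbs1, the targeted gene, went against the labels. Its mean was 0.197 ± 0.103 FPKM (SD, n = 5) in NDWT and 1.30 ± 0.390 in the libraries labelled NDKO, with no overlap between groups. On CDAHFD it was 4.62 ± 1.22 in HFWT and 3.44 ± 0.547 in the libraries labelled HFKO. Which exons the knockout allele lacks was not given in the sources used here, so genotypes below are those of the labels and each genotype difference rests on them. Nfe2l2 and Srxn1 lie on chromosome 2, as does Thbs1, at distances of 42.4 and 34 Mb.

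A log2FC below is a difference between group means of log2(FPKM + 0.1), from a limma fit over all 20 libraries. A gene was called at an FDR (Benjamini-Hochberg, over the 14524 genes tested) under 0.05 and an absolute log2FC above 0.58. FPKM values share a fixed total within a library, and the median gene had a log2FC of 0.53 on CDAHFD in WT livers and of 0.50 in livers labelled TSP-1 null. For that reason each diet effect is set beside that median and beside values after median of ratios scaling or quantile normalization, both of which remove most of the shift. In whole liver, more or fewer cells of a type and more or less RNA per cell cannot be told apart.

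To show the DNA that NRF2 is known to bind, promoter sequences (RefSeq, GRCm38.p6) were read for the 8 members that the promoter table held, which had 10 promoters between them. The 250 bases before each start were searched on both strands for the letters TGACNNNGC, the classical core of the antioxidant response element, and for TGANTCAGC, the form shared with the paired site of NRF2 and a small MAF protein. Both sets of letters can lie in 1 sequence, which then counts once. Of the 8, 4 members held a match, against 12.2% of the 27025 genes in the table. The matches are shown in capitals with up to 20 bases on each side, 5′ to 3′ along the strand of the gene:
Srxn1: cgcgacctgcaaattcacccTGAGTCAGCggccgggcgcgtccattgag
Nfe2l2: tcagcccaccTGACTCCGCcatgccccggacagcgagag
Gclm: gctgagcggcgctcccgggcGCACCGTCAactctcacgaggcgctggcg
Txnrd1: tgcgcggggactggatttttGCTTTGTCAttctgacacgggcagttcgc

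The Srxn1 stretch (chr2:152105459-152105507, plus strand) had 36 bases between the match and the start, and was the only member sequence with the letters TGANTCAGC, which 1.17% of genes held. The Nfe2l2 stretch (chr2:75704875-75704913, minus strand) had 231 bases between match and start, and its window ended 10 bases before the match. In Gclm (chr3:122245403-122245451, plus strand) and in the second of 3 Txnrd1 promoters (chr10:82859094-82859142, plus strand) the match lies on the opposite strand, where it reads TGACGGTGC and TGACAAAGC. Keap1, Slc7a11, Gpx2 and Nqo1 held neither set of letters in these windows, which do not reach further upstream. A match is a description of letters and not a measured binding site.

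On CDAHFD, Gpx2, Slc7a11, Nqo1, Srxn1 and Hmox1 rose in both genotypes by log2FCs of 1.69 to 3.57, while Nfe2l2, Txnrd1, Gclc, Gclm and Keap1 had log2FCs of 0.25 to 1.04, not all of them called. In WT livers 7 of the 10 members were called higher and 0 lower, where 48.8% of all genes tested were called, 44.1% higher and 4.62% lower. In livers labelled TSP-1 null 8 of 10 were called higher and 0 lower, where 45.9% of all genes were called, 41.9% higher and 4% lower. The median log2FC over the members was 1.25 in WT livers and 1.36 in livers labelled TSP-1 null. These medians include Slc7a11 and Gpx2, which passed the expression filter through their CDAHFD libraries alone and so had to differ. At a filter of FPKM above 1 in at least 5 libraries, which both miss, 5 of 8 members were called higher in WT livers (43% of all genes) and 6 of 8 in livers labelled TSP-1 null (41.1%). The median over these 8 was 0.75 and 0.97, beside 0.50 and 0.48 for all genes at that filter. After median of ratios scaling 5 members were called higher in each genotype (Gpx2, Hmox1, Nqo1, Slc7a11 and Srxn1), where 22.7% and 22.2% of all genes were. After quantile normalization 6 and 8 were, where 17.3% and 16.7% of all genes were. Slc7a11 and Gpx2, which had to differ, are in each of these counts. Apart from them, median of ratios scaling left Hmox1, Nqo1 and Srxn1 called in each genotype. Quantile normalization left these and Txnrd1 in WT livers, and Gclc and Nfe2l2 as well in livers labelled TSP-1 null.

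**Figure D1:**
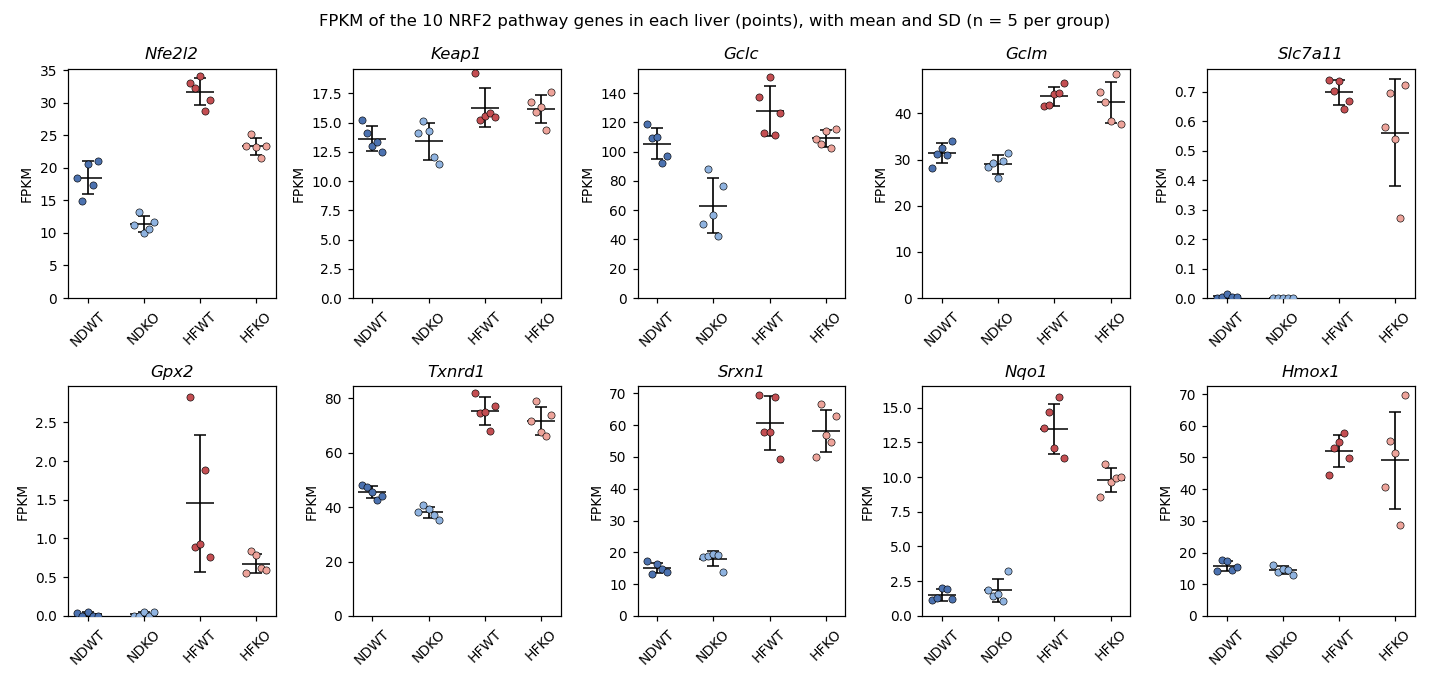
FPKM (vertical axes, from 0) of each of the 10 genes in each of the 20 livers (points), grouped as NDWT, NDKO, HFWT and HFKO, with the mean and SD of 5 livers. The 5 HFWT values lie above the 5 NDWT values for 8 genes, as they do for 50.5% of all genes tested. Slc7a11 and Gpx2, among the 8, passed the expression filter through their CDAHFD libraries alone and so had to differ. In Nfe2l2 each group labelled TSP-1 null lies below its WT group.

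Nfe2l2 (ENSMUSG00000015839.6, GRCm38 chromosome 2, 75675513 to 75704641, minus strand) encodes NRF2 itself. NDWT livers held 18.5, 14.8, 20.6, 17.3 and 21.0 FPKM, and the livers labelled NDKO held 11.2, 13.2, 10.02, 10.6 and 11.7. HFWT livers held 33.0, 32.2, 34.0, 28.8 and 30.5 FPKM, and the livers labelled HFKO held 23.4, 25.2, 23.1, 21.6 and 23.3. No 2 groups overlapped, and they stood in the order NDKO, NDWT, HFKO, HFWT. The highest liver labelled NDKO was at 13.2 FPKM and the lowest NDWT liver at 14.8, while the highest NDWT liver was at 21.0 and the lowest liver labelled HFKO at 21.6, so neighbouring groups lay close together.

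Nfe2l2 rose on CDAHFD from 18.4 ± 2.53 to 31.7 ± 2.09 FPKM in WT livers (log2FC 0.79, SE 0.09, FDR = 1.81e-07). In livers labelled TSP-1 null it rose from 11.4 ± 1.21 to 23.3 ± 1.31 FPKM (log2FC 1.04, SE 0.09, FDR = 5.20e-09). Both diet calls depend on the scaling: after median of ratios scaling the log2FCs were 0.23 and 0.50, under the fold threshold, and after quantile normalization they were 0.51 and 0.67. On the control diet Nfe2l2 was lower in the livers labelled TSP-1 null (log2FC −0.69, 95% interval −0.88 to −0.50, FDR = 8.05e-05), and it was called lower under every alternative tried, with log2FCs from −0.77 to −0.60. On CDAHFD the log2FC was −0.44 (−0.63 to −0.25, FDR = 0.0186), which did not reach the fold threshold. The FDR on CDAHFD was 0.0774 after median of ratios scaling, and 0.0503, 0.0565 and 0.0660 without HFWT replicate 2, HFWT replicate 3 or HFKO replicate 4. The 2 genotype differences themselves did not differ detectably (interaction 0.25, −0.01 to 0.51, FDR = 0.360).

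Keap1 (ENSMUSG00000003308.8, chromosome 9, 21229730 to 21239332, minus strand), the gene of the repressor, stayed within narrow limits. It ranged from 12.5 to 15.2 FPKM in NDWT, 11.4 to 15.1 in the livers labelled NDKO, 15.2 to 19.2 in HFWT and 14.4 to 17.6 in the livers labelled HFKO. The diet log2FCs were 0.25 (FDR = 0.0133) and 0.28 (FDR = 0.00711), below the fold threshold and below the median gene, and they changed sign after median of ratios scaling (−0.31 and −0.25) and quantile normalization (−0.14 and −0.11). Its genotype log2FCs were near 0 on both diets: −0.03 (−0.21 to 0.15) with control chow and −0.0034 (−0.18 to 0.18) with CDAHFD. In a GENCODE annotation 10.9% of Keap1 exon bases are shared with Gm16754 on the opposite strand. That annotation gives Keap1 4693 exon bases, where the deposited length is 4470, so the counted gene model differs from it. The study used a directional library kit, so whether reads from the pair were separated depends on counting by strand, which was not examined here.

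The ratio of Nfe2l2 to Keap1 within a library does not depend on the scaling between libraries. It was 1.37 ± 0.263 in NDWT, 0.856 ± 0.119 in the livers labelled NDKO, 1.96 ± 0.197 in HFWT and 1.44 ± 0.101 in the livers labelled HFKO. The lowest NDWT ratio was 1.05 and the highest in NDKO 1.03, while the lowest HFWT ratio was 1.72 and the highest in HFKO 1.59. The log2 difference was 0.54 for diet in WT livers and 0.76 in livers labelled TSP-1 null, and −0.66 for genotype on the control diet and −0.44 on CDAHFD. All 4 reached the smallest p that a two-sided exact permutation test of 5 against 5 allows (p = 0.00794, adjusted p = 0.0136 over 12 ratio tests). These ratios were chosen after the values had been seen.

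**Figure D2:**
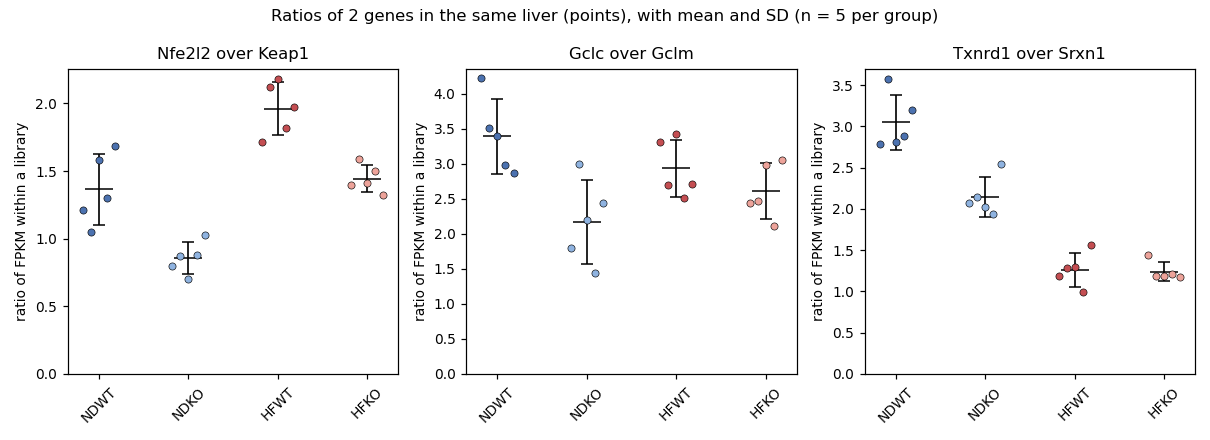
Ratio of the FPKM of 2 genes in the same liver (vertical axes, from 0) for Nfe2l2 over Keap1, Gclc over Gclm and Txnrd1 over Srxn1, by group, with points for livers and bars for mean and SD of 5 livers. The Nfe2l2 to Keap1 ratio is lower in each group labelled TSP-1 null than in its WT group, and the Txnrd1 to Srxn1 ratio is lower in both CDAHFD groups than in both control groups.

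Glutathione synthesis starts with glutamate cysteine ligase, whose catalytic subunit is encoded by Gclc (ENSMUSG00000032350.8, chromosome 9, 77754535 to 77794485, plus strand) and whose modifier subunit by Gclm (ENSMUSG00000028124.9, chromosome 3, 122245557 to 122269984, plus strand). Gclc had the highest mean FPKM of the members in every group. It measured 119, 109, 110, 92.2 and 97.3 FPKM in NDWT and 50.8, 87.9, 56.8, 42.6 and 76.8 in the livers labelled NDKO. On CDAHFD it measured 137, 113, 151, 112 and 126 FPKM in HFWT and 109, 105, 114, 102 and 115 in the livers labelled HFKO. The livers labelled NDKO stood below the other 3 groups without overlap, and the other groups overlapped one another.

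Gclc was lower in livers labelled NDKO (63.0 ± 18.8 FPKM) than in NDWT (106 ± 10.7 FPKM), with a log2FC of −0.79 (95% interval −1.10 to −0.48, FDR = 0.00199). This call held under every alternative, with log2FCs from −0.92 to −0.66. On CDAHFD the genotype log2FC was −0.22 (−0.53 to 0.09, FDR = 0.459). The diet log2FC was 0.84 (FDR = 4.36e-05) in livers labelled TSP-1 null and 0.27 (−0.04 to 0.58, FDR = 0.103) in WT livers, and the difference between these did not pass the test (interaction 0.57, 0.14 to 1.01, FDR = 0.190). Median of ratios scaling took the diet effect to 0.31 in livers labelled TSP-1 null, where the call was lost, and to −0.29 in WT livers.

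Gclm differed from Gclc in that the genotypes overlapped on both diets and the diets did not. It ranged from 28.2 to 34.0 FPKM in NDWT and from 25.9 to 31.5 in livers labelled NDKO, against 41.5 to 46.7 in HFWT and 37.8 to 48.6 in livers labelled HFKO. The diet log2FCs were 0.48 (FDR = 7.37e-06) and 0.54 (FDR = 1.63e-06), close to the median gene and under the fold threshold, and median of ratios scaling took them to −0.08 and 0.01. Without HFKO replicate 5 the second became 0.58 and was called. The genotype log2FCs were −0.11 (−0.27 to 0.04) and −0.05 (−0.20 to 0.10). In the same GENCODE annotation Gclm shares 4.71% of its exon bases with Gm17494 on the opposite strand and 3.88% with Gm6061 on the same strand. There it has 6291 exon bases, where the deposited length is 5543.

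The ratio of Gclc to Gclm, the balance of the subunits at the RNA level, was 3.39 ± 0.536 in NDWT and 2.17 ± 0.599 in livers labelled NDKO (log2 difference −0.68, exact permutation p = 0.0238, adjusted p = 0.0357). It was 2.93 ± 0.407 in HFWT and 2.61 ± 0.399 in livers labelled HFKO, where the difference did not pass the test (−0.17, exact permutation p = 0.238, adjusted p = 0.260).

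Slc7a11 (ENSMUSG00000027737.5, chromosome 3, 50364936 to 50443613, minus strand) encodes the light chain of the cystine transporter that supplies cysteine for glutathione. On the control diet it was barely detected. NDWT livers held 0 to 3 fragments each, 6 in all, and the 5 livers labelled NDKO held 0. On CDAHFD it measured 0.739, 0.703, 0.737, 0.642 and 0.669 FPKM in HFWT, from 130 to 168 fragments. The livers labelled HFKO measured 0.58, 0.694, 0.539, 0.270 and 0.723 FPKM, from 60 to 155 fragments, and the fourth stood well below the others. In fragments per library total, HFWT exceeded NDWT 124-fold (95% counting interval 56.7 to 339). The livers labelled HFKO were at least 204-fold higher than those labelled NDKO, taking a floor of 3 fragments over the group. These intervals and bounds cover counting error only. The fitted log2FCs of 2.91 and 2.67 depend on the pseudocount, from 0.76 and 0.63 with 1 to 5.55 and 5.76 with 0.01. The genotypes overlapped on CDAHFD (log2FC −0.32, −0.80 to 0.16, FDR = 0.485).

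Gpx2 (ENSMUSG00000042808.7, chromosome 12, 76792335 to 76795554, minus strand) encodes a glutathione peroxidase best known from the gut epithelium. No control diet liver held more than 1 fragment, with 2 in all in each genotype. HFWT livers measured 2.82, 0.895, 0.925, 1.88 and 0.759 FPKM, from 14 to 54 fragments, and were uneven. The livers labelled HFKO measured 0.552, 0.839, 0.782, 0.616 and 0.590 FPKM, from 12 to 15 fragments. The ratio of fragments per library total between diets was 73.5 (20.0 to 612) in WT livers and 34.8 (9.27 to 293) in livers labelled TSP-1 null. The fitted diet log2FCs of 3.57 and 2.71 ran from 1.2 and 0.71 with a pseudocount of 1 to 6.01 and 5.07 with 0.01. The genotype log2FC on CDAHFD was −0.85 (−1.48 to −0.21), the furthest from 0 among the members in that comparison, but the groups overlapped and it did not pass the test (FDR = 0.162).

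In the thioredoxin branch, Txnrd1 (ENSMUSG00000020250.9, chromosome 10, 82859206 to 82897724, plus strand) encodes the cytosolic thioredoxin reductase. NDWT livers measured 48.1, 47.3, 45.7, 42.6 and 44.1 FPKM, and livers labelled NDKO 38.3, 40.6, 39.3, 36.9 and 35.4. HFWT livers measured 82.0, 74.4, 75.0, 68.1 and 77.2 FPKM, and livers labelled HFKO 71.6, 78.9, 67.6, 66.0 and 74.0. Every CDAHFD liver exceeded every control liver. The diet log2FCs were 0.72 (SE 0.06, FDR = 3.67e-09) and 0.91 (SE 0.06, FDR = 2.05e-10), but they fell to 0.16 and 0.37 after median of ratios scaling, where neither was called. On the control diet the genotypes did not overlap, with a log2FC of −0.26 (−0.39 to −0.13, FDR = 0.00899) that lay under the fold threshold. On CDAHFD they overlapped (log2FC −0.07, −0.20 to 0.05, FDR = 0.555).

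Srxn1 (ENSMUSG00000032802.7, chromosome 2, 152105516 to 152111376, plus strand) encodes sulfiredoxin, which repairs peroxiredoxins that have been overoxidized. It measured 17.2, 13.2, 16.3, 14.8 and 13.8 FPKM in NDWT and 18.5, 18.98, 19.4, 19.1 and 13.9 in livers labelled NDKO. HFWT livers measured 69.4, 57.8, 57.8, 68.9 and 49.5 FPKM, and livers labelled HFKO 49.9, 66.5, 57.1, 54.6 and 63.0. The lowest CDAHFD liver, at 49.5 FPKM, stood far above the highest control liver, at 19.4. The mean rose 4.03-fold in WT livers (log2FC 2.00, SE 0.11, FDR = 1.30e-11) and 3.24-fold in livers labelled TSP-1 null (log2FC 1.69, SE 0.11, FDR = 1.49e-10). Over all alternatives the log2FCs ran from 1.44 to 2.07 and from 1.16 to 1.75, and each was called. The genotype log2FCs of 0.25 (0.02 to 0.48, FDR = 0.152) and −0.06 (−0.29 to 0.18, FDR = 0.825) were not called. Without NDKO replicate 5 the first was 0.34 (FDR = 0.0353), still under the fold threshold.

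Txnrd1 and Srxn1 changed unequally. The ratio of Txnrd1 to Srxn1 was 3.05 ± 0.334 in NDWT and 1.26 ± 0.207 in HFWT (log2 difference −1.28), and 2.14 ± 0.237 in livers labelled NDKO and 1.24 ± 0.112 in livers labelled HFKO (log2 difference −0.79). It was also lower in livers labelled NDKO than in NDWT (log2 difference −0.51). These 3 differences each had an exact permutation p of 0.00794 and an adjusted p of 0.0136, while the genotypes on CDAHFD differed by −0.02 (exact permutation p = 0.968).

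Nqo1 (ENSMUSG00000003849.8, chromosome 8, 107388225 to 107403206, minus strand) encodes a quinone reductase and is widely used as a marker of NRF2 activity. NDWT livers measured 1.16, 1.27, 2.03, 1.91 and 1.19 FPKM, and livers labelled NDKO 1.84, 1.44, 1.58, 1.09 and 3.22. HFWT livers measured 13.5, 14.7, 12.1, 15.8 and 11.4 FPKM, and livers labelled HFKO 8.54, 10.9, 9.66, 9.90 and 9.97. The mean rose 8.91-fold in WT livers (log2FC 3.10, SE 0.21, FDR = 1.28e-10) and 5.34-fold in livers labelled TSP-1 null (log2FC 2.44, SE 0.21, FDR = 4.35e-09). The log2FCs over all alternatives ran from 2.46 to 3.21 and from 1.80 to 2.66. On CDAHFD the highest liver labelled HFKO, at 10.9 FPKM, lay below the lowest HFWT liver, at 11.4. The log2FC of −0.45 (−0.88 to −0.02) nevertheless had an FDR of 0.270, and the interaction of −0.66 (−1.27 to −0.05) an FDR of 0.284. On the control diet the genotypes overlapped, and the log2FC of 0.21 became −0.01 without NDKO replicate 5, the liver at 3.22 FPKM.

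Hmox1 (ENSMUSG00000005413.7, chromosome 8, 75093591 to 75100596, plus strand) encodes the inducible haem oxygenase, which is also abundant in macrophages that take up red blood cells. It measured 14.3, 17.5, 17.3, 14.5 and 15.4 FPKM in NDWT and 16.1, 14.0, 14.7, 14.5 and 12.98 in livers labelled NDKO. HFWT livers measured 44.5, 52.9, 55.01, 57.8 and 49.8 FPKM, and livers labelled HFKO 40.5, 55.2, 51.3, 28.8 and 69.6. The spread was far wider in livers labelled HFKO, with a coefficient of variation of 31.4% against 9.87% in HFWT and a median of 12.97% over all genes tested in the former. The mean rose 3.29-fold in WT livers (log2FC 1.71, SE 0.16, FDR = 1.22e-08) and 3.40-fold in livers labelled TSP-1 null (log2FC 1.70, SE 0.16, FDR = 1.57e-08). The genotype log2FCs were −0.13 (−0.46 to 0.21) and −0.14 (−0.47 to 0.19), and neither passed the test.

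**Figure D3:**
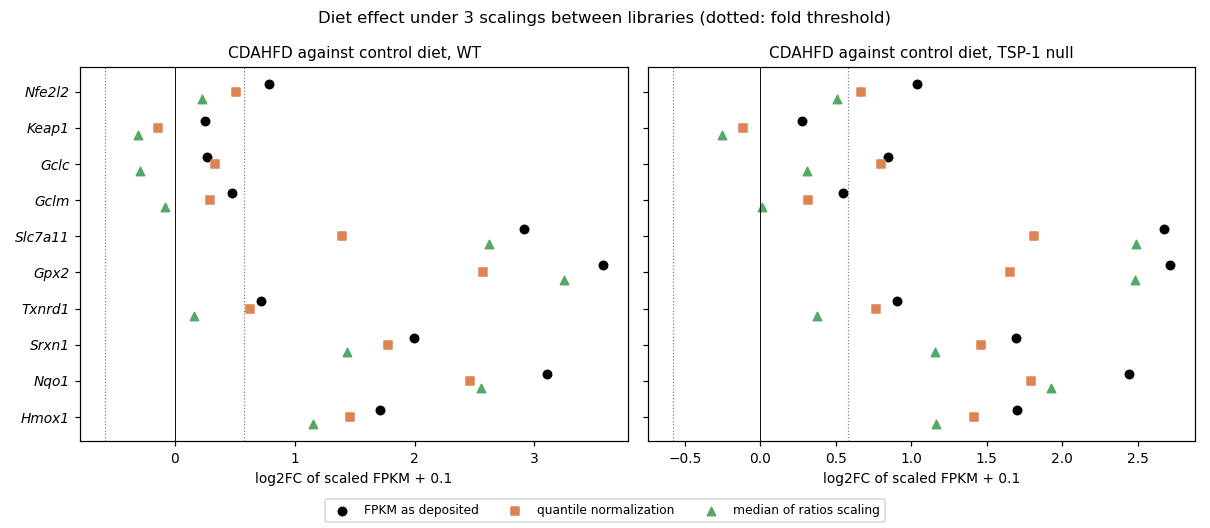
log2FC of CDAHFD against control diet (horizontal axes) for the 10 genes in WT livers (left) and livers labelled TSP-1 null (right), from FPKM as deposited, after quantile normalization and after median of ratios scaling. Gpx2, Slc7a11, Nqo1, Srxn1 and Hmox1 stay above the fold threshold of 0.58 under all 3, while Nfe2l2, Gclc, Gclm and Txnrd1 cross it or lie below it under some, and Keap1 changes sign. Gpx2 and Slc7a11 passed the expression filter through their CDAHFD libraries alone and so had to differ, and their log2FCs depend on the pseudocount.

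Few members stood apart by genotype. Between the diets, all 5 CDAHFD livers exceeded all 5 control livers for 8 members in WT (50.5% of all genes tested) and for 9 in livers labelled TSP-1 null (52.7%). Keap1 was the exception in both, and Gclc in WT. Both counts include Slc7a11 and Gpx2, which passed the expression filter through their CDAHFD libraries alone and so had to differ. Between the genotypes on the control diet, 2 of 10 members were called lower in livers labelled TSP-1 null, Nfe2l2 and Gclc, and 0 higher. Of all genes tested, 4.77% were called, 1.74% higher and 3.03% lower. Groups did not overlap, with livers labelled TSP-1 null lower, for Nfe2l2, Gclc and Txnrd1 (6.69% of all genes). On CDAHFD limma called 0 of 10 members between genotypes, where 0.496% of all genes were called. An unadjusted limma p under 0.05 was found for 3 members (Nfe2l2, Gpx2 and Nqo1), and the share of all genes with such a p was not counted. At an FDR under 0.05 with no fold threshold Nfe2l2 alone was lower, where 0.868% of all genes were. The groups did not overlap for Nfe2l2 and Nqo1 (4.13% of all genes were lower without overlap). The median log2FC over the members was −0.10 on the control diet, beside −0.07 for all genes, and −0.18 on CDAHFD, beside −0.10. limma called the interaction of diet and genotype for 0 of 10 members, where 0.647% of all genes were called. For 3 members the unadjusted limma p of the interaction was under 0.05 (Gclc, Txnrd1 and Nqo1), and here too the share of all genes was not counted.

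**Figure D4:**
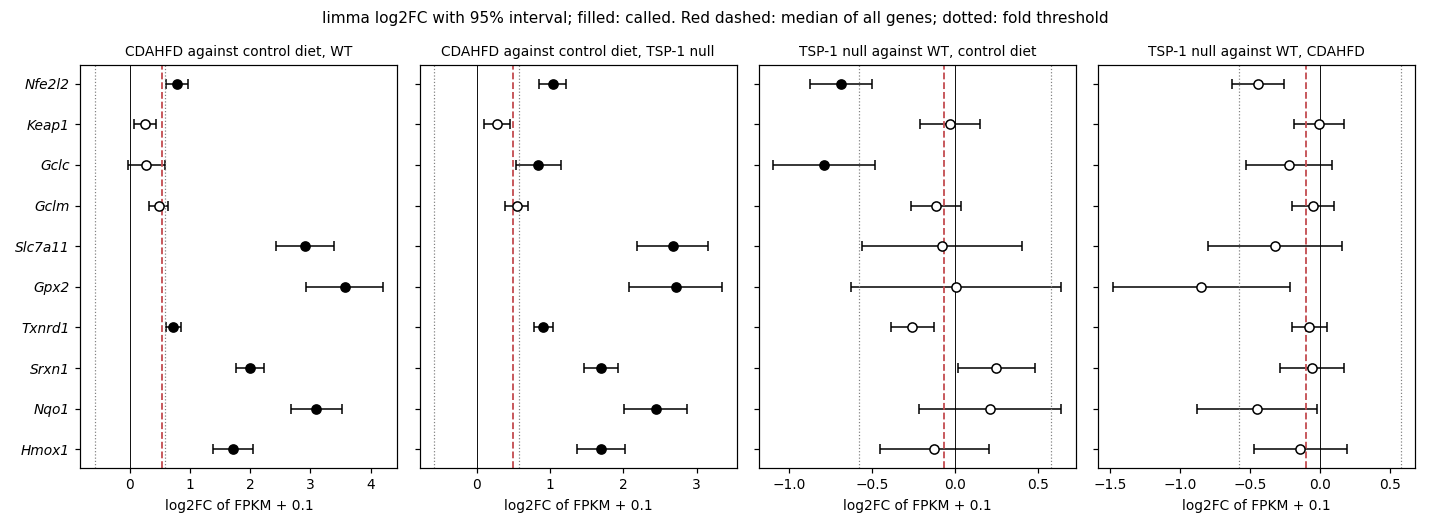
log2FC with 95% interval (horizontal axes, scales differ) of the 10 genes in each of the 4 comparisons, filled where the gene was called, with the median of all genes as a red dashed line and the fold threshold as dotted lines. The diet effects lie right of 0, and the only filled points between genotypes are Nfe2l2 and Gclc on the control diet, at −0.69 and −0.79.

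Single livers also ran high or low across several members. HFKO replicate 4 was the lowest of its group for 6 members (Nfe2l2, Keap1, Gclc, Slc7a11, Txnrd1 and Hmox1) and the highest for Gclm. HFKO replicate 2 was the highest for 5. HFWT replicate 1 was the highest of its group for 5 members, Gpx2 and Slc7a11 among them. NDKO replicate 5 was the lowest for 4 members and the highest for Nqo1 and Gclm. Libraries also differed in composition. Alb took 7.12% of fragments in HFKO replicate 4, the largest share of its group, and 3.45% in HFWT replicate 1, the smallest of its group. The ranks of the members were not compared with those of all genes, and the part of composition in them was not tested.

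The wider pathway was read from lists of 101 other genes. Of 11 tested partners and regulators of NRF2, 4 rose on CDAHFD in WT livers and 2 in livers labelled TSP-1 null, and 0 fell in either, where 44.1% and 41.9% of all genes tested rose. In WT livers these were the small MAF genes Mafk (log2FC 1.15), Mafg (0.65) and Maff (1.5) and Sqstm1 (0.62), whose product p62 draws KEAP1 into autophagy, and in livers labelled TSP-1 null Maff (2.78) and Mafk (1.30). The list median was 0.51 and 0.44, at or below the median of all genes. Maff was also lower in livers labelled NDKO (1.12 ± 0.545 FPKM) than in NDWT (2.66 ± 0.921; log2FC −1.24, FDR = 0.00583). Cul3, the ligase scaffold, had diet log2FCs of 0.14 and 0.05, and Bach1, a repressor at the same elements, had −0.14 and 0.41, none of them called. In WT livers Bach1 was called lower after median of ratios scaling (−0.70) and after quantile normalization (−0.62).

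Of 23 other NRF2 target enzymes, 16 rose and 1 fell on CDAHFD in WT livers, and 18 rose and 1 fell in livers labelled TSP-1 null. Ptgr1 and Abcc4, which are in both counts of genes that rose, passed the expression filter only through their CDAHFD libraries and so had to differ. Of all genes tested, 44.1% rose and 4.62% fell in WT livers, and 41.9% rose and 4% fell in livers labelled TSP-1 null. After median of ratios scaling 9 and 10 of the 23 rose, where 22.7% and 22.2% of all genes did. Enzymes of the pentose phosphate pathway, whose oxidative steps by the products of G6pdx and Pgd make NADPH, were among them: G6pdx rose from 2.29 ± 0.364 to 11.2 ± 1.53 FPKM in WT livers (log2FC 2.24), Pgd from 3.73 ± 0.465 to 21.1 ± 2.75 (log2FC 2.46) and Tkt from 10.8 ± 1.04 to 27.3 ± 2.73 (log2FC 1.33). Cbr3, a carbonyl reductase, rose by a log2FC of 3.87. The gene that fell was Me1, malic enzyme, another source of NADPH and a gene of fat synthesis, from 37.7 ± 3.19 to 8.92 ± 2.47 FPKM in WT livers (log2FC −2.10) and by a log2FC of −1.20 in livers labelled TSP-1 null. Osgin1 was lower in livers labelled NDKO (36.7 ± 12.0 FPKM) than in NDWT (85.1 ± 27.2; log2FC −1.22, FDR = 0.00290), and Cbr1 was higher (log2FC 0.59, FDR = 0.0167).

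Of 15 tested glutathione S-transferases, which attach glutathione to electrophiles, 11 rose on CDAHFD in each genotype. Gstp1 fell in livers labelled TSP-1 null (log2FC −0.94). Of all genes tested, 44.1% rose and 4.62% fell in WT livers, and 41.9% and 4% in livers labelled TSP-1 null. Gsta1 went from 0.429 ± 0.277 to 50.8 ± 11.5 FPKM in WT livers (log2FC 6.72) and Gstm3 from 1.91 ± 0.562 to 180 ± 91.8 (log2FC 6.41). In livers labelled TSP-1 null their log2FCs were 6.2 and 6.36. Gsta1 passed the expression filter only through its CDAHFD libraries and so had to differ, and it is among the 11 in each genotype. The alpha, mu and pi classes are families of close paralogs, so reads may have been divided between members or lost. Gsta2 was the only gene of these lists with a called interaction (−1.59, FDR = 0.0104): it was higher in livers labelled NDKO (6.05 ± 1.34 FPKM) than in NDWT (3.37 ± 0.664), and measured 49.3 ± 11.7 FPKM in HFWT and 29.0 ± 7.31 in livers labelled HFKO.

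Of 18 tested genes of glutathione synthesis, turnover and peroxidases, 7 rose and 3 fell on CDAHFD in each genotype. Beside this list and those that follow, 44.1% of all genes tested rose and 4.62% fell in WT livers. In livers labelled TSP-1 null 41.9% rose and 4% fell. The list median was 0.16 and 0.31, below the 0.53 and 0.50 of all genes. Among the genes that rose were Gss, glutathione synthetase (log2FC 1.37 and 1.32), and Gpx3 (3.36 and 2.91). Slc3a2, the heavy chain that pairs with the product of Slc7a11, also rose (1.25 and 1.30). Oplah (−0.92 and −0.61) and Hagh (−0.85 and −0.61) were lower. Glo1 fell in WT livers (−0.78) and Cth in livers labelled TSP-1 null (−1.58). Cth, which makes cysteine from cystathionine, was higher in livers labelled NDKO (333 ± 122 FPKM) than in NDWT (138 ± 40.6; log2FC 1.25, FDR = 0.00131). Of 13 thioredoxins, peroxiredoxins and related genes, Sesn1 (1.21), Prdx3 (0.85) and Txnrd3 (0.61) rose and Prdx6 fell (−0.67) in WT livers. Prdx3 (0.85) and Sesn1 (0.99) rose in livers labelled TSP-1 null. The median over these 13 was 0.15 and 0.18, also below that of all genes. Of 4 superoxide and peroxide enzymes, Sod3 rose (1.18 and 1.13) and Cat, catalase, fell (−0.76 and −0.77). Of 7 NADPH oxidase subunits, which produce superoxide and are known mainly from phagocytes, 6 rose in each genotype, among them Cyba (3.15 and 2.83), while Nox4 had log2FCs of −0.04 and −0.07. Of 6 tested genes of haem breakdown and carriage, 2 rose and 1 fell in WT livers, and 3 rose and 1 fell in livers labelled TSP-1 null. Cd163, the receptor by which macrophages take up haemoglobin and haptoglobin, fell from 6.75 ± 1.36 to 0.152 ± 0.072 FPKM in WT livers (log2FC −4.79) and by a log2FC of −4.27 in livers labelled TSP-1 null. Blvra, biliverdin reductase, rose (1.28 and 1.29), as did Hmox2 in WT livers (0.70) and the carriers Hp (0.65) and Hpx (0.69) in livers labelled TSP-1 null. The split between higher and lower calls depended on the scaling: after median of ratios scaling, in WT livers, 2 partners and regulators were called higher and 3 lower, 7 glutathione S-transferases higher and 3 lower, 6 genes of glutathione synthesis and turnover higher and 7 lower, 1 thioredoxin or peroxiredoxin gene higher and 3 lower, 1 superoxide or peroxide enzyme higher and 3 lower, 6 NADPH oxidase subunits higher and 1 lower, and 1 gene of haem breakdown and carriage higher and 1 lower. Under that scaling, in WT livers, 3299 of all 14524 genes tested were called higher and 2242 lower. Between genotypes on CDAHFD 0 of the 97 tested genes of these 8 lists were called by limma, where 0.496% of all genes were. limma gave an unadjusted p under 0.05 for 20 of the 97. The share of all genes with such a p was not counted, so no excess can be read from this.

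**Figure D5:**
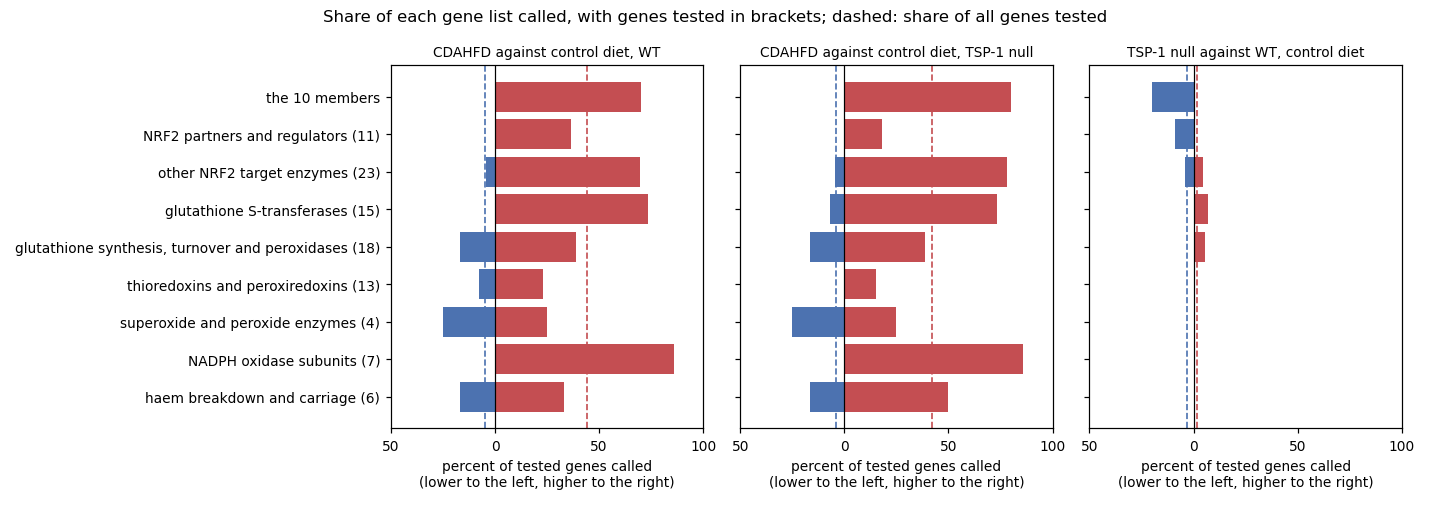
Percent of the tested genes of each list called lower (left of 0) or higher (right of 0) in 3 comparisons, with the number tested in brackets and the share of all genes tested as dashed lines. On CDAHFD the members, the other NRF2 targets, the glutathione S-transferases and the NADPH oxidase subunits lie past the dashed line for higher genes. The members include Slc7a11 and Gpx2, which had to differ. So did Ptgr1 and Abcc4 among the other NRF2 targets and Gsta1 among the glutathione S-transferases. On the control diet few genes differ between genotypes.

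Markers of other cell types moved with the diet. Of the macrophage markers measured, Cd68, Csf1r, Trem2 and Itgax rose in both genotypes, while Clec4f, a marker of resident Kupffer cells, fell from 67.5 ± 7.43 to 29.7 ± 8.79 FPKM in WT livers and from 69.3 ± 13.9 to 40.7 ± 10.1 in livers labelled TSP-1 null. Trem2 and Itgax passed the expression filter only through their CDAHFD libraries and so had to differ. Summed FPKM of the 5 macrophage markers measured of 6 listed was 81.9 to 115 in NDWT, 77.5 to 126 in livers labelled NDKO, 170 to 243 in HFWT and 143 to 251 in livers labelled HFKO. The 5 of 5 cholangiocyte markers summed to 15.2 to 18, 12.4 to 15.5, 292 to 488 and 181 to 360 in the same order. The 5 of 5 stellate cell markers summed to 6.04 to 9.39, 5.99 to 7.55, 57.4 to 123 and 56.2 to 105, the 4 of 4 T and B cell markers to 1.33 to 3.43, 2.29 to 3.64, 6 to 10.3 and 4.83 to 9.84, and the 3 of 3 neutrophil markers to 1.11 to 3.92, 0.716 to 3.37, 15.8 to 29.7 and 10.4 to 22.4. Each of these 5 sums was higher on CDAHFD in both genotypes without overlap. Col1a1 was the largest part of the stellate cell sum on CDAHFD, with means of 53.1 FPKM in HFWT and 55.2 in livers labelled HFKO. The 3 endothelial markers summed to 19.5 to 23.2, 15.5 to 20.5, 22.8 to 31.9 and 22.3 to 35.9. The 5 hepatocyte markers measured of 6 listed summed to 32580 to 40119, 36104 to 43330, 25064 to 36482 and 33355 to 44388, and the 3 erythroid markers to 114 to 166, 112 to 310, 94.9 to 195 and 92.0 to 178, with overlap between the diets in both. None of the 8 sums separated the genotypes on either diet. No listed marker was at 0 in every library, though Ly6g was at 0 in all WT livers. The part of these cells in the diet effects on the members was not tested.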

How the data were processed

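The authors sequenced liver RNA and made the values with STAR 2.5.2 and featureCounts of Subread 1.5.1, per the submitters' processing notes. The deposited table holds FPKM for each gene, with the gene's length in bases and GRCm38 coordinates, whereas the notes name GRCh38. Sources differ on the lobe (right medial or right lateral). FPKM times length and library total gave fragments that were whole within 0.2. No 2 libraries were copies of each other.

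All 20 libraries entered 1 limma 3.58.1 fit (R 4.3.3; functions lmFit, contrasts.fit and eBayes with an intensity trend) on log2(FPKM + 0.1), with a mean for each group. A gene was tested where FPKM exceeded 0.5 in 5 or more libraries. Ratios within a library were compared by exact permutation (two-sided, 252 arrangements, Python 3.11.15). The p-values judge a difference between groups against the spread between mice.

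The members and gene lists were chosen with earlier results of these data known. All 10 members are named, and of each list the called genes, at most 6 by FDR in a comparison. Cul3, Bach1, Me1, Gstp1, Oplah, Glo1 and Nox4 were named after their values were seen. Tf, Adgre1 and Flvcr1 were not analysed here. The values of 1 gene of the lists are not reported here. Alternatives covered the pseudocount, filter, scaling, fold threshold, libraries fitted, variance model, replicate block and each library left out.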

Additional observations from a re-analysis of the deposited data

Results flagged for a closer look

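In 2 of 39 member and group combinations tested, a single liver stood apart from the other 4 (gap to the nearest liver over the range above 0.71), and chance alone marks about 1 group in 20. Keap1 was at 19.2 FPKM in HFWT replicate 1, where the other HFWT livers lay between 15.2 and 15.8. Srxn1 was at 13.9 FPKM in NDKO replicate 5, where the other livers labelled NDKO lay between 18.5 and 19.4. Without HFWT replicate 1 the genotype log2FC of Keap1 on CDAHFD was 0.06, with no call in either case. Without NDKO replicate 5 the genotype log2FC of Srxn1 on the control diet was 0.34 with an FDR of 0.0353 (0.152 with it), under the fold threshold in both cases.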

How the results depend on the processing

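Median of ratios scaling left 5 members called for diet in livers labelled TSP-1 null in place of 8, and with no fold threshold 1 member (Nfe2l2) passed between genotypes on CDAHFD. Of the recomputed counts of called members, 157 stayed within 1.5 times the reported count and 2 did not. No called log2FC changed sign. Among values that were not called, Keap1 became −0.31 and −0.25 for diet after median of ratios scaling and −0.14 and −0.11 after quantile normalization, and between genotypes 0.044 and 0.098 after the first and 0.032 and 0.063 after the second. Median of ratios scaling also gave −0.29 for Gclc and −0.081 for Gclm for diet in WT livers, 0.053 for Gclm, 0.027 for Txnrd1 and 0.045 for Srxn1 between genotypes on CDAHFD, and 0.013 for the interaction of Hmox1. The interaction of Slc7a11 was 0.21 with a pseudocount of 0.01 and 0.42 after quantile normalization. With each library left out, the control diet genotype log2FC ran from −0.076 to 0.024 for Keap1, −0.083 to 0.10 for Gpx2 and −0.0064 to 0.36 for Nqo1. On CDAHFD it ran from −0.034 to 0.058 for Keap1 and −0.28 to 0.038 for Hmox1, and the interaction from −0.027 to 0.089 for Keap1 and −0.15 to 0.16 for Hmox1. The cause of these changes was not tested.

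The replicate numbers shared between groups did not pair the livers: over 30 same-numbered pairs the deviations correlated at −0.13 to 0.08, and 6 of 20 libraries correlated best with their own number. With the replicate block 7, 8, 2, 0 and 0 members were called for diet in WT and in TSP-1 null labelled livers, for genotype on the control diet and on CDAHFD, and for the interaction, as without it. Depth limits Slc7a11 and Gpx2, which held 0 to 3 fragments per control diet library.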
